A study of Mus musculus with 24 samples.

Results

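The chemokine system was followed through 10 genes, 5 ligands (Ccl3, Ccl4, Ccl5, Ccl6 and Ccl9) and 5 receptors (Ccr1, Ccr2, Cx3cr1, Cxcr4 and Cxcr2), in blood-forming cells of mice lacking or carrying BAP1, which removes ubiquitin from histone H2A. The genes were taken from a list of names matched to the array's symbols, and all 10 of 10 were found among 17741 named genes. Where a gene had several probes, the brightest on average over the arrays stood for it.

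The study measured 24 one-colour arrays from 8 C57BL/6 mice, with 3 arrays per mouse and 2 mice in each of 4 groups. The groups were LSK cells of BAP1 knockout (KO) mice, LSK cells of BAP1 wild-type (WT) mice, myeloid progenitors of KO mice and myeloid progenitors of WT mice. LSK cells are lineage-negative, Sca1-positive and Kit-positive marrow cells, a fraction enriched for hematopoietic stem cells, while the myeloid progenitors were lineage-negative, Sca1-negative and Kit-positive. All were primary bone marrow cells, and no mouse gave both populations. Tamoxifen was injected to delete Bap1 systemically, and the labels state the injection for the mice as a whole without separating the genotypes. The sources used here do not give the Cre driver, the age and sex of the mice or the interval after injection. The deletion was systemic and therefore not limited to the sorted cells.

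Chemokines are small secreted proteins that guide leukocytes, and their receptors are G-protein-coupled receptors on the responding cell. In bone marrow, Cxcr4 holds stem and progenitor cells near stroma that makes Cxcl12, Cxcr2 and Ccr2 act in the release of neutrophils and monocytes, and Ccl3 was described early as an inhibitor of stem cell cycling. Ccl3, Ccl5, Ccl6 and Ccl9 can act through Ccr1.

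The 5 ligand genes lie in a row on mouse chromosome 11, in the RefSeq order Ccl5, Ccl9, Ccl6, Ccl3, Ccl4. The bases before the listed starts of 3 of them are shown because these adjacent genes behaved differently. Ccl9 differed by genotype in LSK cells and by population in KO mice. Ccl3 differed by population in both genotypes and not by genotype, and Ccl6 differed by neither. The sequences are from RefSeq (assembly GRCm38.p6) and run 5′ to 3′ on the gene's strand, the minus strand in each case, up to the base before the start. Capitals mark matches to the motifs listed after them.
Ccl9 (chr11:83578637-83578886): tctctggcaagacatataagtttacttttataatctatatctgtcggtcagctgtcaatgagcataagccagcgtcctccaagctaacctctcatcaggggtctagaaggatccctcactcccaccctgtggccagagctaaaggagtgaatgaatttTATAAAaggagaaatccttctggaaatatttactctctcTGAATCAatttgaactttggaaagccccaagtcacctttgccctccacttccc
Ccl6 (chr11:83593088-83593337): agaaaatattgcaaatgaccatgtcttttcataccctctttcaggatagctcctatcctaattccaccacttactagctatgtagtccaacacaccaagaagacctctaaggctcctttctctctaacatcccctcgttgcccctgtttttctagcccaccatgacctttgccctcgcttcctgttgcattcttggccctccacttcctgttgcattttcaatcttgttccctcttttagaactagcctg
Ccl3 (chr11:83649379-83649628): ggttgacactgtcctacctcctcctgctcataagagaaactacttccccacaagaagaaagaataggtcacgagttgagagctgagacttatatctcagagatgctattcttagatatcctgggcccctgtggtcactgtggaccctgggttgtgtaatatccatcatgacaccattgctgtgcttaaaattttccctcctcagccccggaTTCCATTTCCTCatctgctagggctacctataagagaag
The motifs searched on both strands were GGGANTTCC for NF-kB, GAGGAA for PU.1, TTGCNNAA for C/EBP, TGANTCA for AP-1, GAAANNGAA for the interferon-stimulated response element and CCATNTT for YY1, and TATAAA, added after the data were seen, was searched on the gene's strand. The Ccl9 window held an AP-1 match at 53 to 47 bases before the start and a TATAAA at 92 to 87 bases before it. The Ccl3 window held an interferon-stimulated response element match at 39 to 31 bases, which overlapped a PU.1 match at 33 to 28 bases. No listed motif matched in the Ccl6 window. Among 32851 promoter windows of the same length, 6.75% held the AP-1 letters, 7.59% TATAAA, 7.13% the interferon-stimulated response element, 23.3% PU.1, 1.43% NF-kB, 9.56% C/EBP and 12.4% YY1. A match is a description of the letters and not evidence of binding.

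Values below are the authors' log2 expression values averaged over the 3 arrays of a mouse. They ran from 5.66 to 15.93, with array medians of 7.17 to 7.18 and 25th percentiles of 6.15 to 6.18, so that values near 6 lie at the low end of an array. Differences were tested with limma on the 8 mouse means, adjusted by Benjamini-Hochberg over all 22439 probes, and a difference passed the threshold at an adjusted p below 0.05. The 95% intervals quoted are unadjusted. The only Bap1 probe was not lower in the mice labelled KO (11.96 and 11.84 in KO against 11.55 and 11.45 in WT LSK cells, adjusted p = 0.321). The sources used here do not say whether it lies in the deleted part, and KO and WT below mean the labelled genotype. Of the sort genes, Kit read 12.76 to 13.49 in all mice, Ly6a (Sca1) was not analysed here, and the mean of 10 stem cell genes was 10.92 to 11.69 in LSK mice and 9.62 to 9.73 in myeloid progenitor mice. Of the lineage genes, Cd3e read 7.40 to 7.78 and Itgam 9.60 to 10.55. Mouse 1 (WT LSK cells) and mouse 5 (WT myeloid progenitors) carried a signal of the Y-linked gene Kdm5d, 7.88 and 8.15, against 5.93 to 6.02 in the other mice. Xist read 7.37 and 7.28 in these mice, against 7.51 to 7.87 in the others. No KO mouse carried the Kdm5d signal, so it is not balanced with genotype, and its part in the KO minus WT differences was not tested. Some results without both mice are given below. Mouse 1 also stood apart in immediate early genes, chosen for this remark after their values were seen, with Fosb at 13.51 against 10.30 to 11.48 in the other LSK mice. In bulk RNA of a sorted population, fewer cells of a type and less RNA per cell cannot be told apart.

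In LSK cells, Ccl9 was higher and Ccl5 lower in KO than in WT mice, and the other 8 genes did not pass. These 2 of 10 stand against 4.64% of all genes in either direction, 1.74% higher and 2.90% lower. In myeloid progenitors 0 of 10 passed, where the share over all genes was 2.64%, with 0.908% higher and 1.74% lower. There, 2 of the 10 (Ccl9 and Cx3cr1) had an unadjusted limma p below 0.05, against 3 (Ccl5, Ccl9 and Ccr1) in LSK cells. The share of all genes at that unadjusted level is not given here, so these 2 counts have no background beside them. The median difference over the 10 genes was -0.14 in LSK cells and 0.07 in myeloid progenitors, against 0.02 and 0.00 over all genes.

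**Figure D1:**
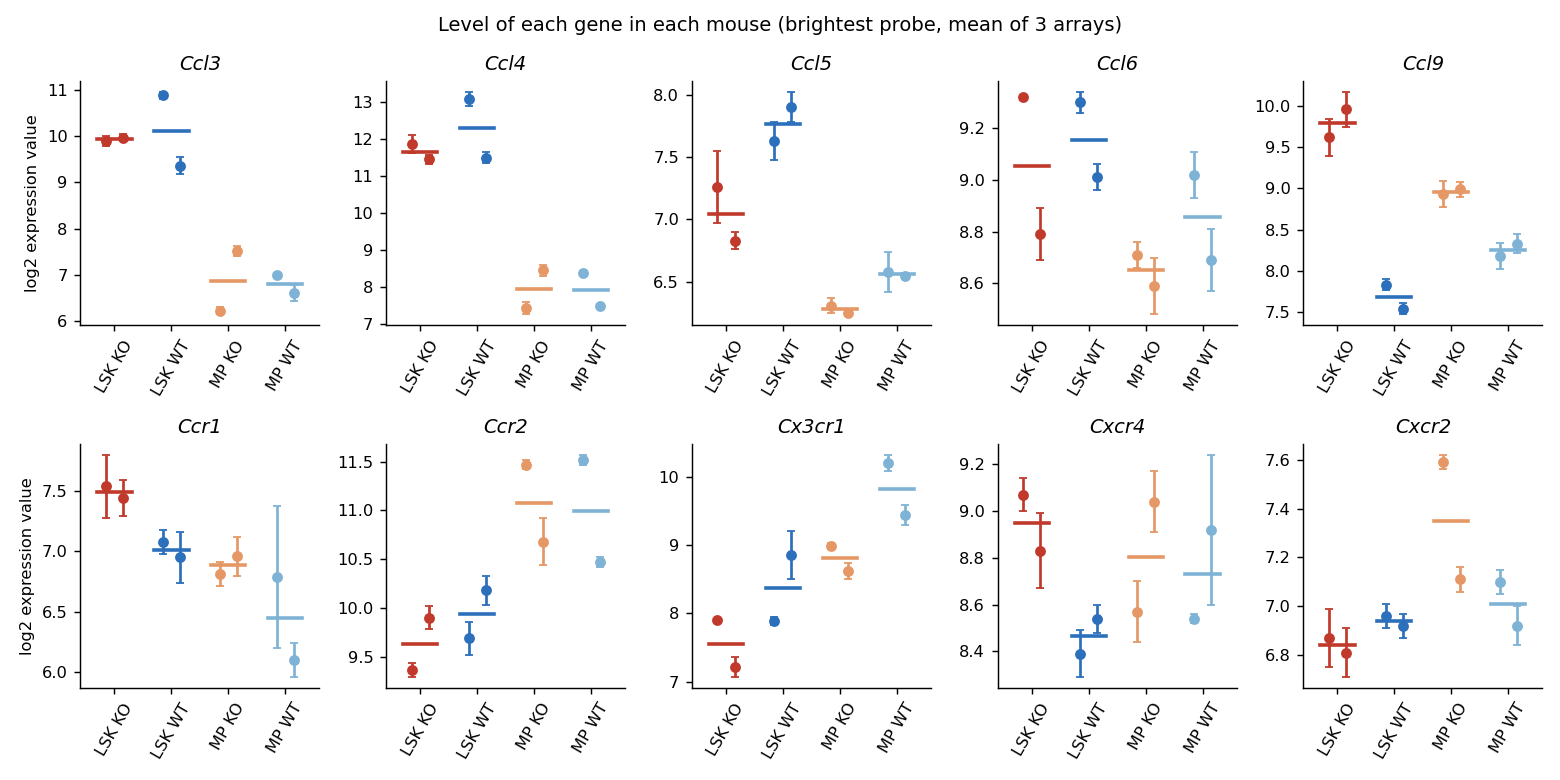
Level of each of the 10 genes in each mouse, as the log2 expression value of its brightest probe. Points are means of 3 arrays of a mouse, error bars are the SD of those arrays, and horizontal lines are group means of 2 mice. Each panel has its own axis, since levels of different probes cannot be compared. For Ccl3, Ccl4, Ccl5 and Ccr2 no LSK mouse overlaps a myeloid progenitor mouse. KO and WT mice do not overlap in either population for Ccl9, and also for Ccl5, Ccr1 and Cxcr2. With 2 mice per group such non-overlap is only a description, and its share over all genes is not given here.

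Ccl9, an inflammatory ligand made by myeloid cells and osteoclasts, read 9.62 and 9.96 in KO LSK mice, against 7.83 and 7.54 in WT LSK mice. It read 8.93 and 8.99 in KO myeloid progenitors, against 8.18 and 8.33 in WT myeloid progenitors. In both populations the KO mice lay above both WT mice. The difference was 2.11 ± 0.21 in LSK cells (SE, limma adjusted p = 0.000516), 4.31-fold, with an interval of 1.64 to 2.57. Between the myeloid progenitors it was 0.70 ± 0.21 (adjusted p = 0.153), with an interval of 0.24 to 1.17. Averaged over the populations it was 1.40 ± 0.15 (adjusted p = 0.000322). The difference between the populations' changes was 1.41 ± 0.30 and did not pass over all probes (adjusted p = 0.161), so a larger change in LSK cells was not shown.

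The order of the Ccl9 levels was KO LSK cells, KO myeloid progenitors, WT myeloid progenitors and WT LSK cells, and no neighbours in that order overlapped. LSK cells thus held the highest and the lowest level. LSK minus myeloid progenitor cells gave 0.83 ± 0.21 in KO mice (adjusted p = 0.0265) and -0.57 ± 0.21 in WT mice (adjusted p = 0.107). The KO and WT comparisons share LSK and myeloid mice with those above, so they are not independent of them. Leaving out any 1 mouse kept the KO minus WT call in LSK cells, with 1.94 to 2.28 and adjusted p of at most 0.00295. The KO call between populations was lost without mouse 4, 7 or 8.

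Markers of monocytes, macrophages and neutrophils were read in the same mice. The mean of 11 monocyte and macrophage genes was 9.07 to 9.21 in KO LSK mice and 9.19 to 9.30 in WT LSK mice, and 1 of the 11 rose (Cd68, a lysosomal protein of macrophages, by 2.26 ± 0.27, adjusted p = 0.0012) and 1 fell (Mpeg1, a call lost without mouse 2 or 3). The mean of 14 neutrophil genes was 12.07 to 12.26 in KO and 11.82 in both WT LSK mice, with 3 of 14 higher (Cebpe, Ctsg and Elane) and 0 lower. These shares stand beside the 1.74% of all genes higher and 2.90% lower in KO LSK cells. All 3 neutrophil calls were lost without mouse 1 or mouse 4 and without mice 1 and 5 together, and each was lost without further mice. Between WT LSK cells and WT myeloid progenitors, these 3 neutrophil genes were lower in LSK cells. Camp, Retnlg, S100a9, Lcn2, Mmp9 and Ltf were higher there, and none of them passed between KO and WT LSK cells. No neutrophil gene and 1 monocyte gene lay below the 25th percentile in all mice. Their part in the Ccl9 difference was not tested.

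Ccl5, a ligand made mainly by activated T and NK cells and carried by platelets, read 7.26 and 6.83 in KO LSK mice, against 7.63 and 7.90 in WT LSK mice. In KO myeloid progenitors it read 6.31 and 6.25, against 6.58 and 6.55 in WT myeloid progenitors. Both KO mice lay below both WT mice in each population, and the myeloid values were close to the low end of the array. The difference was -0.72 ± 0.16 in LSK cells (adjusted p = 0.0311), 1.65-fold lower, and -0.29 ± 0.16 in myeloid progenitors (adjusted p = 0.62, interval -0.64 to 0.07). The difference between these changes was -0.44 ± 0.23 (adjusted p = 0.863). The LSK call was lost on leaving out mouse 3, 4, 5, 6, 7 or 8, with values of -0.94 to -0.51 and adjusted p of 0.015 to 0.135 over all mice left out in turn.

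Over the mean of both populations' changes, 2 of 10 passed, Ccl9 higher and Ccl5 lower (-0.51 ± 0.11, adjusted p = 0.021, lost without the same mice as in LSK cells), where 7.95% of all genes passed, 3.09% higher and 4.85% lower. For the difference between the changes 0 of 10 passed, and 0.0620% of all genes passed, 0.0169% higher and 0.0451% lower. Of the 10, 1 (Ccl9) had an unadjusted limma p below 0.05, a level for which the share of all genes is not given here.

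B cell markers, like Ccl5, were lower in KO than in WT LSK mice. The mean of 9 B cell genes was 7.13 to 7.43 in KO LSK mice and 9.45 to 9.48 in WT LSK mice, with 6 of 9 lower, among them Igll1, part of the surrogate light chain of B cell precursors, which fell by 4.91 ± 0.31 (adjusted p = 7.56e-05). Among all genes, 2.90% fell and 1.74% rose in KO LSK cells. In KO myeloid progenitors 5 of 9 B cell genes fell, where 1.74% of all genes fell. The B cell mean there was 7.28 to 7.33 in KO and 8.79 to 9.06 in WT mice, while the Ccl5 difference did not pass. The mean of 9 T and NK cell genes overlapped in LSK mice, at 7.07 to 7.15 in KO and 7.13 to 7.36 in WT. Of these, 2 were lower (Cd3d and Gzma) and 1 higher (Nkg7). Both lower calls were lost without mouse 3, 4, 5, 6, 7 or 8, and the Nkg7 call without mouse 1 or 3. In both lists together, 1 T and NK cell gene lay below the 25th percentile in all mice. Their part in the Ccl5 difference was not tested.

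Ccl6, a ligand of myeloid cells whose gene lies next to Ccl9, read 9.32 and 8.79 in KO LSK mice, against 9.30 and 9.01 in WT LSK mice. Its myeloid progenitor values were 8.71 and 8.59 in KO, against 9.02 and 8.69 in WT mice. The groups overlapped in each population, and no neighbours in the order of the 4 groups separated. The KO minus WT difference was -0.10 ± 0.24 in LSK cells (interval -0.63 to 0.43), an interval that stops short of the Ccl9 difference, and -0.20 ± 0.24 in myeloid progenitors.

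Ccl3 and Ccl4, inflammatory ligands of macrophages and lymphocytes, were not separated by genotype. Ccl3 read 9.90 and 9.97 in KO LSK mice, against 10.88 and 9.36 in WT LSK mice, so that both KO values lay between the WT values. The KO minus WT difference in LSK cells was -0.18 ± 0.59 (adjusted p = 0.935), and its interval of -1.63 to 1.27 is wide. Ccl4 read 11.85 and 11.44 in KO LSK mice, against 13.07 and 11.49 in WT LSK mice, a difference of -0.64 ± 0.62 (adjusted p = 0.714). In both genes the highest LSK mouse was mouse 1, and in KO myeloid progenitors mouse 8 was above mouse 7 (7.52 against 6.23 for Ccl3 and 8.44 against 7.42 for Ccl4). The same mice were high in the immediate early gene Fos, chosen after its values were seen. It read 15.09 in mouse 1 against 13.24 to 14.07 in the other LSK mice, and 11.77 in mouse 8 against 9.91 in mouse 7. In KO LSK mice the order of Ccl4 was opposite to that of Fos, with Ccl4 higher in mouse 2 and Fos higher in mouse 4 (14.07 against 13.24). Ccl3 was nearly level there, at 9.90 in mouse 2 and 9.97 in mouse 4. Of other immediate early genes, Egr1 and Jun were higher in mouse 2, and Fosb, Dusp1 and Nr4a1 in mouse 4. In WT myeloid progenitors mouse 5 was above mouse 6 in Ccl4 (8.36 against 7.48) and Fos (10.02 against 9.05). Fosb was not higher in mouse 5 (6.36 against 6.40). Whether what moved the immediate early genes also moved Ccl3 and Ccl4 was not tested.

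**Figure D2:**
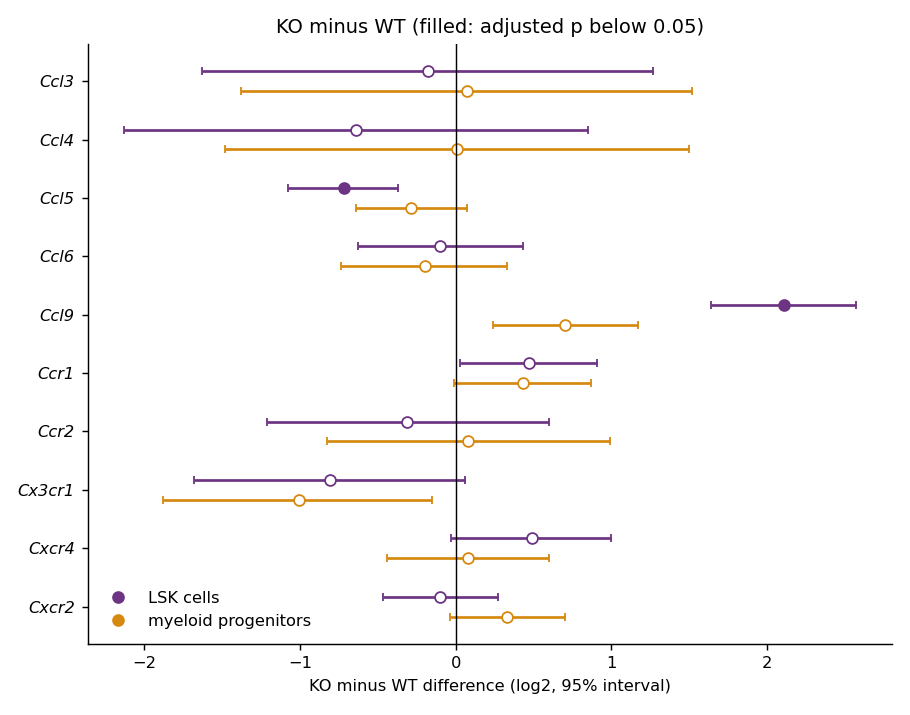
KO minus WT difference of each of the 10 genes on the log2 scale, in LSK cells and in myeloid progenitors, with unadjusted 95% intervals from limma. Filled points have an adjusted p below 0.05, which holds for Ccl9 (2.11) and Ccl5 (-0.72) in LSK cells and for no gene in myeloid progenitors.

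Among the receptors, no KO minus WT difference passed in either population. Cx3cr1, the fractalkine receptor of monocytes and their progenitors, read 7.90 and 7.22 in KO LSK mice, against 7.89 and 8.85 in WT LSK mice. Among myeloid progenitors it read 8.99 and 8.62 in KO, against 10.20 and 9.44 in WT mice. The KO mice lay below both WT mice in myeloid progenitors and overlapped them in LSK cells. The differences were -0.81 ± 0.38 (adjusted p = 0.353) in LSK cells and -1.01 ± 0.38 (adjusted p = 0.337, interval -1.88 to -0.15) in myeloid progenitors, and -0.91 ± 0.27 (adjusted p = 0.0881) on average. In the same myeloid mice the mean of the 11 monocyte and macrophage genes was 9.59 to 9.81 in KO and 10.34 to 10.35 in WT, with 3 of 11 lower (F13a1, Mpeg1 and Adgre1), all 3 calls being lost without mouse 5 or without mouse 8. Of all genes, 1.74% were lower in KO myeloid progenitors. The part of the monocyte and macrophage genes in the Cx3cr1 values was not tested.

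Ccr1, a receptor shared by most of these ligands, read 7.54 and 7.44 in KO LSK mice, against 7.08 and 6.95 in WT LSK mice. KO myeloid progenitors read 6.81 and 6.96, against 6.79 and 6.10 in WT mice. The KO mice lay above the WT mice in both populations, by 0.47 ± 0.20 (adjusted p = 0.272) and 0.43 ± 0.20 (adjusted p = 0.465), without passing. The arrays of mouse 5 spread widely for this probe, from 6.33 to 7.46. With 1 mouse left out the myeloid difference ran from 0.09 to 0.78. Without mouse 5, Ccr1 passed for the mean of the changes (0.63, adjusted p = 0.0117) and for LSK minus myeloid progenitors in both genotypes.

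Cxcr4, the receptor for Cxcl12, read 9.07 and 8.83 in KO LSK mice, against 8.39 and 8.54 in WT LSK mice. The KO LSK mice lay above the WT ones by 0.49 ± 0.24, which did not pass (adjusted p = 0.353, interval -0.03 to 1.00). KO myeloid progenitors read 8.57 and 9.04 and WT ones 8.54 and 8.92, and the groups overlapped.

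Ccr2, the Ccl2 receptor of monocytes, read 9.36 and 9.90 in KO LSK mice, against 9.69 and 10.18 in WT LSK mice. KO myeloid progenitors read 11.47 and 10.68, against 11.52 and 10.47 in WT mice. KO and WT overlapped in both populations, with differences of -0.31 ± 0.40 and 0.08 ± 0.40. Cxcr2, the receptor of neutrophils for Cxcl1 and Cxcl2, read 6.87 and 6.81 in KO LSK mice, against 6.96 and 6.92 in WT LSK mice. Among myeloid progenitors it read 7.59 and 7.11 in KO, against 7.10 and 6.92 in WT mice. These groups did not overlap, but the differences of -0.10 ± 0.17 and 0.33 ± 0.17 did not pass.

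Between the populations, LSK cells held more Ccl3, Ccl4 and Ccl5 than myeloid progenitors in both genotypes. In KO mice 5 of 10 genes passed, with Ccl3, Ccl4, Ccl5 and Ccl9 higher and Ccr2 lower in LSK cells, and 12.8% of all genes passed, 7.26% higher and 5.49% lower. In WT mice 4 of 10 passed, with Ccl3, Ccl4 and Ccl5 higher and Cx3cr1 lower, and 13.5% of all genes passed, 8.08% higher and 5.46% lower.

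Ccl4 had the largest difference of the 10 in both genotypes. Its myeloid progenitor values were 7.42 and 8.44 in KO mice and 8.36 and 7.48 in WT mice, all below every LSK mouse. LSK minus myeloid progenitors was 3.71 ± 0.62 in KO mice (adjusted p = 0.0137), 13.1-fold, and 4.36 ± 0.62 in WT mice (adjusted p = 0.00706), 20.6-fold. Ccl3 read 6.23 and 7.52 in KO and 7.00 and 6.61 in WT myeloid progenitors, again below every LSK mouse. Its difference was 3.06 ± 0.59 in KO mice (adjusted p = 0.024), 8.36-fold, and 3.31 ± 0.59 in WT mice (adjusted p = 0.0173), 9.94-fold. For both genes the order was WT LSK, KO LSK, KO myeloid and WT myeloid cells, and only the middle neighbours did not overlap. Some immediate early genes, chosen after their values were seen, were also higher in LSK cells, and these passed in WT mice only. Fos read 13.24 to 15.09 in LSK mice and 9.05 to 11.77 in myeloid progenitor mice, a difference of 2.82 ± 0.83 in KO mice (adjusted p = 0.107) and 4.92 ± 0.83 in WT mice (adjusted p = 0.0233). Egr1 differed by 2.71 ± 0.73 in KO mice (adjusted p = 0.0856) and by 3.77 ± 0.73 in WT mice (adjusted p = 0.0341). Fosb differed by 3.16 ± 1.13 in KO mice (adjusted p = 0.178) and by 5.96 ± 1.13 in WT mice (adjusted p = 0.0379). Jun passed in neither genotype (adjusted p = 0.564 in KO and 0.0655 in WT mice), and Atf3 lay near the low end of the array. The part of the immediate early genes in the Ccl3 and Ccl4 differences was not tested.

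Ccl5 was higher in LSK cells by 0.76 ± 0.16 in KO mice (adjusted p = 0.0116) and by 1.20 ± 0.16 in WT mice (adjusted p = 0.000891). Its order was WT LSK, KO LSK, WT myeloid and KO myeloid cells, with no overlap between neighbours. In WT mice the Ccl4 and Ccl5 calls were kept with any 1 mouse left out, and the Ccl3 call was lost without mouse 2, 5 or 6. Without mouse 7, 0 of 10 genes passed in KO mice, and without mouse 2 or mouse 4 it was 1. Without mice 1 and 5 together, the WT count was 2 (Ccl4 and Ccl5), Ccl3 was at 2.75 ± 0.58 (adjusted p = 0.0746) and Cx3cr1 at -0.59 ± 0.39 (adjusted p = 0.548).

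**Figure D3:**
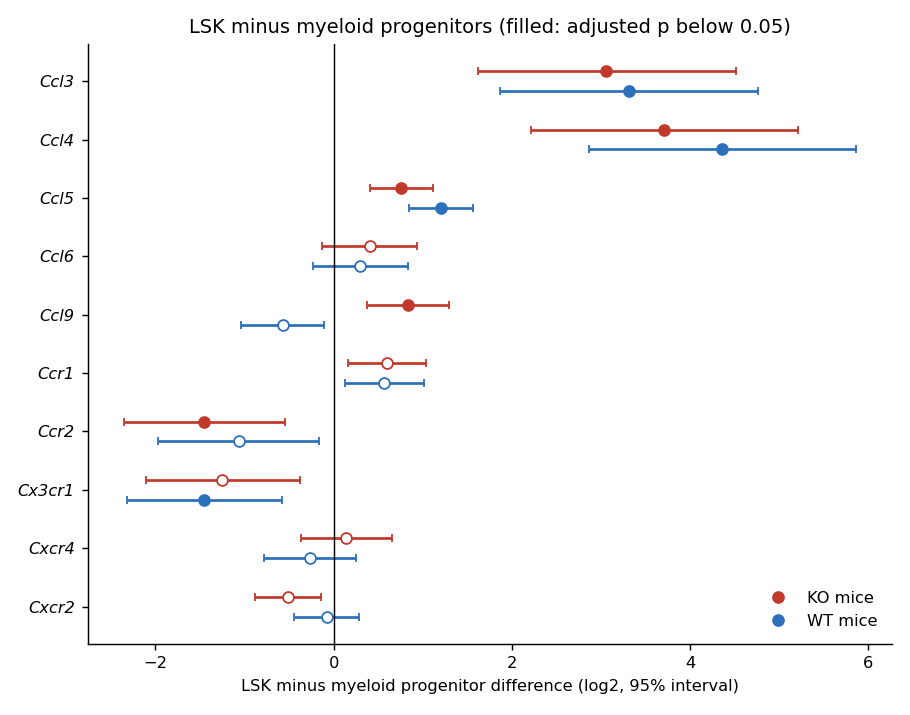
LSK minus myeloid progenitor difference of each of the 10 genes on the log2 scale, in KO and in WT mice, with unadjusted 95% intervals from limma. Filled points have an adjusted p below 0.05. Ccl3 and Ccl4 lie farthest to the right in both genotypes, and Ccr2 and Cx3cr1 farthest to the left.

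The receptors that were lower in LSK cells were Ccr2 and Cx3cr1. Ccr2 differed by -1.45 ± 0.40 in KO mice (adjusted p = 0.0477) and by -1.06 ± 0.40 in WT mice (adjusted p = 0.128). A second, dimmer Ccr2 probe passed in both genotypes, with -1.27 ± 0.25 in KO mice (adjusted p = 0.00905) and -1.12 ± 0.25 in WT mice (adjusted p = 0.0148). The KO call of the brighter probe was lost without mouse 1, 2, 3, 4 or 7. On both probes every LSK mouse lay below every myeloid progenitor mouse. Cx3cr1 differed by -1.25 ± 0.38 in KO mice (adjusted p = 0.0695) and by -1.45 ± 0.38 in WT mice (adjusted p = 0.0389), a call lost without mouse 1, 5, 7 or 8. From high to low, Ccr2 ran from KO and WT myeloid progenitors to WT and KO LSK cells, with a gap between the populations and overlap within them. Cx3cr1 ran from WT to KO myeloid progenitors, which did not overlap, and then to WT and KO LSK cells, where each group overlapped the next above it. Monocyte and macrophage genes moved the same way, with 6 of 11 lower in KO LSK cells and 7 of 11 lower in WT LSK cells than in the myeloid progenitors of that genotype, and with group ranges of the list mean as given above. Of all genes, 5.49% were lower in KO and 5.46% in WT LSK cells. The part of the monocyte and macrophage genes in the Ccr2 and Cx3cr1 differences was not tested.

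Ccr1 was higher in LSK cells by 0.60 ± 0.20 in KO mice (adjusted p = 0.0772) and by 0.57 ± 0.20 in WT mice (adjusted p = 0.0932), without overlap and without passing. KO LSK cells were highest in Ccr1 and WT myeloid progenitors lowest, and WT LSK cells overlapped KO myeloid progenitors between them. Cxcr2 was highest in KO and next in WT myeloid progenitors, and it differed between LSK cells and myeloid progenitors by -0.51 ± 0.17 in KO mice (adjusted p = 0.0775) and by -0.07 ± 0.17 in WT mice (adjusted p = 0.832). Cxcr4 overlapped between the populations in both genotypes, with 0.14 ± 0.24 in KO mice (interval -0.37 to 0.66) and -0.26 ± 0.24 in WT mice (interval -0.78 to 0.25). Ccl6 differed by 0.41 ± 0.24 in KO mice and 0.30 ± 0.24 in WT mice, neither of which passed. All neighbours in the order of the groups overlapped for Cxcr4.

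Of 28 other chemokines measured of 33 listed, 0 rose and 2 fell in KO against WT LSK cells, where 1.74% of all genes rose and 2.90% fell. In KO against WT myeloid progenitors 1 rose and 1 fell, where 0.908% of all genes rose and 1.74% fell. Pf4, the platelet chemokine, read 10.93 and 10.63 in KO LSK mice, against 11.79 and 12.19 in WT LSK mice, a difference of -1.21 ± 0.24 (adjusted p = 0.0184). Pf4 differed in myeloid progenitors by -1.23 ± 0.24 (adjusted p = 0.023), with calls lost without mouse 3 or 4 in LSK cells and without mouse 5, 7 or 8 in myeloid progenitors. The mean of 9 megakaryocyte and platelet genes, which include Pf4, overlapped in LSK cells, at 8.71 to 8.80 in KO and 8.48 to 8.95 in WT mice, with Treml1 lower and Gp5 higher, both lost without mouse 2. In myeloid progenitors the mean was 9.10 to 9.16 in KO and 8.58 to 8.65 in WT mice, with Gp5 and Selp higher, calls lost without mouse 8 for Gp5 and without mouse 5, 6 or 7 for Selp. Xcl1, a ligand of T and NK cells, fell by 1.43 ± 0.30 in KO LSK cells (adjusted p = 0.0407). With 1 mouse left out its difference ran from -1.95 to -0.90, and the call was lost without mouse 2, 4, 5, 6, 7 or 8 (adjusted p up to 0.2). Ccl17, a ligand of dendritic cells, read 7.62 and 8.06 in KO myeloid progenitors, against 6.86 and 6.97 in WT ones, a difference of 0.92 ± 0.15 (adjusted p = 0.00921, lost without mouse 5, 6 or 8). Between populations, 1 was higher and 1 lower in LSK cells of KO mice, and 2 were higher and 2 lower in LSK cells of WT mice. The all-gene shares there were 7.26% higher and 5.49% lower in KO mice, and 8.08% higher and 5.46% lower in WT mice.

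Of 17 other chemokine receptors measured of 19 listed, 6 fell and 0 rose in KO against WT LSK cells, and 0 passed in either direction in myeloid progenitors. Over all genes 2.90% fell and 1.74% rose in KO LSK cells, and 2.64% passed in KO myeloid progenitors. The median difference of the 17 in LSK cells was -0.20, against 0.02 over all genes. Cxcr6, a receptor of T and NK cells, read 7.36 and 6.62 in KO LSK mice, against 8.07 and 8.51 in WT LSK mice, a difference of -1.29 ± 0.24 (adjusted p = 0.0192). Ccr9, a receptor of thymus-seeding progenitors and gut lymphocytes, read 7.45 and 7.19 in KO LSK mice, against 8.96 and 8.24 in WT LSK mice, a difference of -1.28 ± 0.24 (adjusted p = 0.0125). Ccr6, found on B cells, read 6.06 and 5.94 in KO LSK mice, against 6.94 and 7.09 in WT LSK mice, a difference of -1.01 ± 0.10 (adjusted p = 0.000451). The KO values of Ccr6 were at the low end of the array. Ccrl2, an atypical receptor, fell by 0.99 ± 0.24 (adjusted p = 0.0471), Ccr7, the lymph node homing receptor, named to complete the count after its values were seen, fell by 0.81 ± 0.14 (adjusted p = 0.0109), and Xcr1, a receptor of dendritic cells, fell by 0.20 ± 0.05 at 5.90 to 6.18 in all LSK mice. The calls of Ccr6 and Ccr7 were kept with any 1 mouse left out, that of Ccr9 was lost without mouse 1 or 4 and that of Cxcr6 without mouse 3. The Ccrl2 call was lost without any mouse but mouse 3 (adjusted p up to 0.367), and the Xcr1 call without any but mouse 1. In all, 3 to 4 of the 17 were lower with 1 mouse left out, 2 without mice 1 and 5, and 1 with eBayes run without trend and robust options. The B cell list, given above for Ccl5, was lower in the same KO LSK mice. It was also lower in KO myeloid progenitors, where 0 of the 17 receptors passed. The mean of the T and NK cell list overlapped between KO and WT LSK mice. The part of both lists in the receptor differences was not tested.

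**Figure D4:**
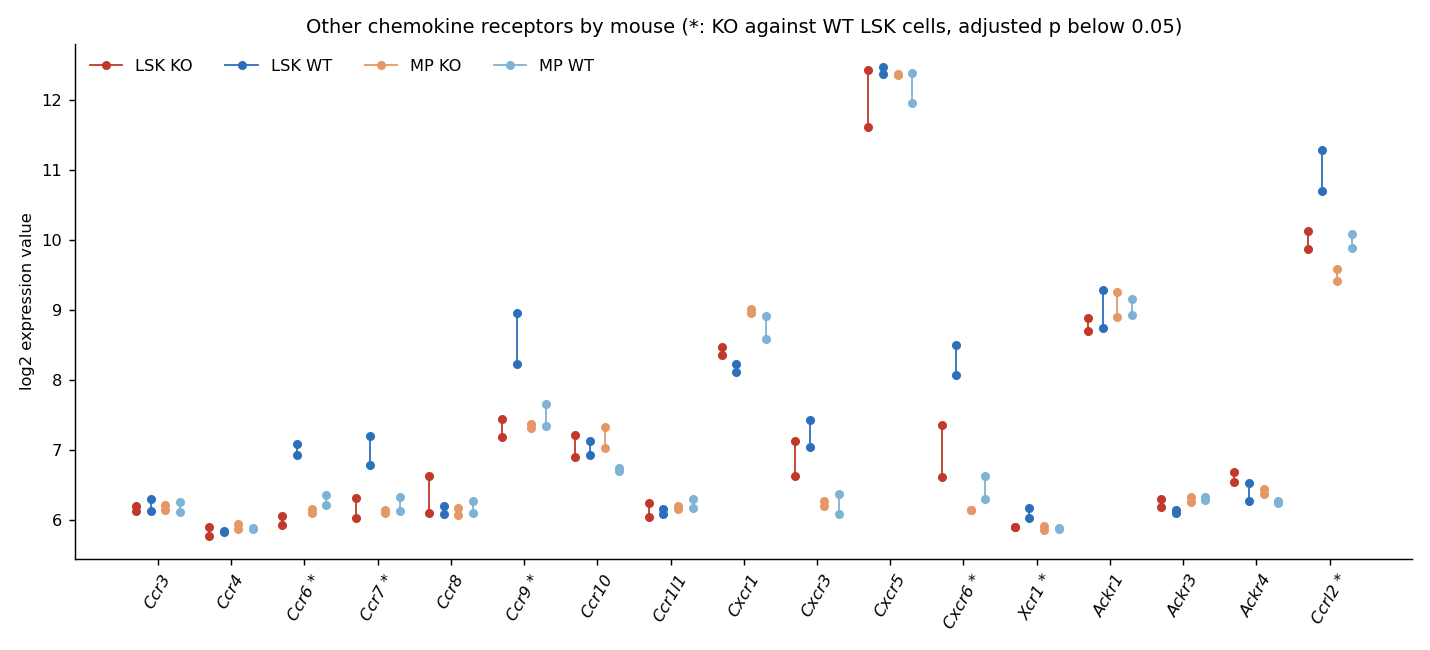
Level of the 17 other chemokine receptors measured, as log2 expression values of each gene's brightest probe. Each pair of joined points is the 2 mice of a group, in the order LSK KO, LSK WT, myeloid progenitors (MP) KO and MP WT, and an asterisk marks the 6 receptors lower in KO than in WT LSK cells.

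Set beside WT myeloid progenitors, WT LSK cells were higher in 7 of these 17 receptors and lower in 0, with Cxcr6 at 1.81 ± 0.24, Ccr9 at 1.09 ± 0.24, Cxcr3 at 1.01 ± 0.18 and Ccrl2 at 1.00 ± 0.24. KO LSK cells were higher than KO myeloid progenitors in 1 (Cxcr3, 0.64 ± 0.18) and lower in 0. The WT count was 2 without mouse 6 and 4 without mice 1 and 5, and the Cxcr3 call in KO mice was lost without mouse 2, 5, 6, 7 or 8. Among all genes, 8.08% were higher and 5.46% lower in WT LSK cells, and 7.26% higher and 5.49% lower in KO LSK cells. The KO minus WT differences in LSK cells and the WT differences between populations share the WT LSK mice.

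Below the receptors, 36 of 38 listed signalling genes were measured. Of these, 0 rose and 2 fell in KO LSK cells, where 1.74% of all genes rose and 2.90% fell. In KO myeloid progenitors 0 rose and 1 fell, where 0.908% of all genes rose and 1.74% fell. Gng2, a gamma subunit of heterotrimeric G proteins, read 11.83 and 11.66 in KO LSK mice, against 13.35 and 13.16 in WT LSK mice, a difference of -1.51 ± 0.21 (adjusted p = 0.00255). Its myeloid progenitor values were 9.27 and 9.55 in KO, against 11.70 and 11.41 in WT mice, a difference of -2.15 ± 0.21 (adjusted p = 0.000507). Both calls of Gng2 were kept with any 1 mouse left out. Pik3cg, the phosphoinositide 3-kinase that beta-gamma subunits activate, fell by 1.10 ± 0.27 in KO LSK cells (adjusted p = 0.0454), a call that 6 of the 8 mice could each remove. Between populations, 4 of the 36 were higher and 2 lower in LSK cells of KO mice, and 4 higher and 3 lower in LSK cells of WT mice. The shares over all genes were 7.26% higher and 5.49% lower in KO mice, and 8.08% higher and 5.46% lower in WT mice. Rgs1, which shortens G-protein signals, was higher in LSK cells by 3.18 ± 0.42 in KO mice (adjusted p = 0.00244) and by 2.39 ± 0.42 in WT mice (adjusted p = 0.00747, lost without mouse 6).

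Of 22 inducers and transcription factors of chemokine genes measured of 23 listed, 2 rose and 0 fell in KO LSK cells and 0 passed in KO myeloid progenitors. Beside this, 1.74% of all genes rose and 2.90% fell in LSK cells, and 2.64% passed in myeloid progenitors. Relb, a subunit of NF-kB, read 10.73 and 9.75 in KO LSK mice, against 9.02 and 8.82 in WT LSK mice, a difference of 1.32 ± 0.29 (adjusted p = 0.0298). Cebpb, a factor of emergency granulopoiesis, read 10.85 and 10.32 in KO LSK mice, against 9.66 and 9.44 in WT LSK mice, a difference of 1.04 ± 0.23 (adjusted p = 0.034). Leaving out 1 mouse removed the Relb call for mice 1, 2, 3, 5 and 6 and the Cebpb call for mice 1, 2, 3, 7 and 8. Between populations, 4 of the 22 were higher and 2 lower in LSK cells of KO mice, and 3 higher and 2 lower in LSK cells of WT mice. Of all genes, 7.26% were higher and 5.49% lower in KO mice, and 8.08% higher and 5.46% lower in WT mice. Nfkb1, which encodes the p50 subunit, was higher in LSK cells by 2.68 ± 0.29 in KO mice (adjusted p = 0.000408) and by 2.12 ± 0.29 in WT mice (adjusted p = 0.00107). Irf8, a factor of monocyte development, differed between LSK cells and myeloid progenitors by -1.37 ± 0.24 in KO mice (adjusted p = 0.00481) and by -1.50 ± 0.24 in WT mice (adjusted p = 0.00255).

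In the row of genes on chromosome 11, the genes flanking the 5 ligands were Mmp28, Taf15 and Heatr9 on the Ccl5 side and Wfdc18, Wfdc21 and Heatr6 on the Ccl4 side. In KO LSK cells 1 of these 6 passed, where 4.64% of all genes passed, and in KO myeloid progenitors 0 passed, where 2.64% did. The 1 was Wfdc18, next to Ccl4, which fell by 0.89 ± 0.15 (adjusted p = 0.00895). Of the 3 adjacent genes Ccl5, Ccl9 and Ccl6, the first was lower, the second higher and the third did not pass in KO LSK cells. Wfdc18 was also higher in WT LSK cells than in WT myeloid progenitors, by 1.29 ± 0.15 (adjusted p = 0.000443).

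**Figure D5:**
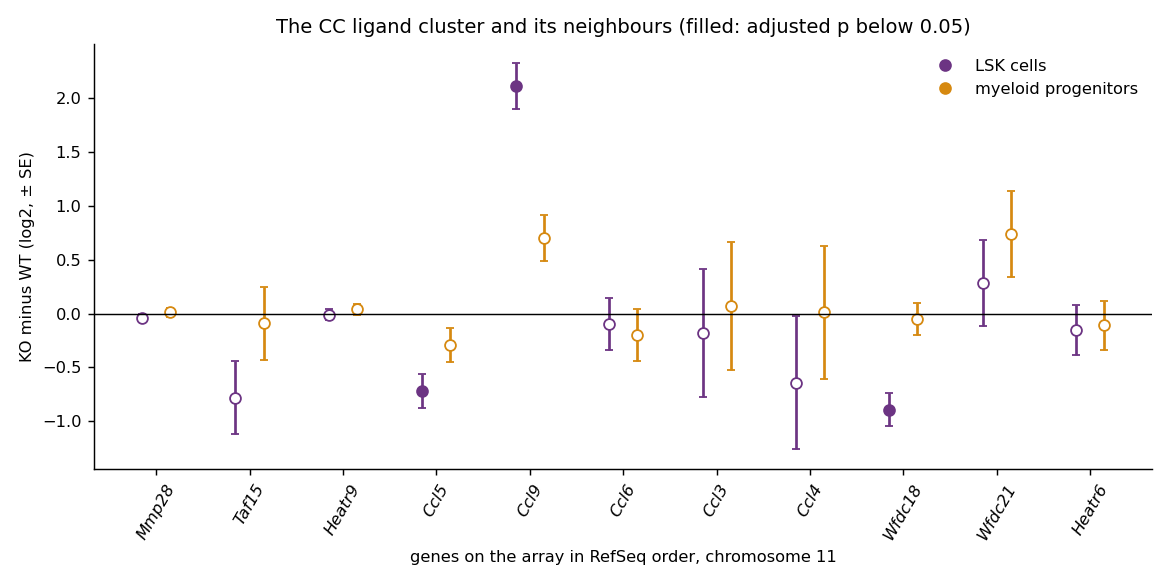
KO minus WT difference (log2, ± SE from limma) of the 5 CC ligand genes and the 3 genes with a probe on each side, in RefSeq order on chromosome 11, in LSK cells and in myeloid progenitors. Filled points have an adjusted p below 0.05. Ccl9 stands at 2.11 in LSK cells between Ccl5 at -0.72 and Ccl6 at -0.10.

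The receptor genes Ccr1 and Ccr2 lie in a row on chromosome 9 with Ccr9, Cxcr6 and Xcr1 on the Ccr1 side and Ccr1l1 and Ccr3 between them. In KO LSK cells Ccr9, Cxcr6 and Xcr1 fell, as given above, while Ccr1 differed by 0.47 ± 0.20, Ccr1l1 by 0.02 ± 0.08, Ccr3 by -0.06 ± 0.08 and Ccr2 by -0.31 ± 0.40. Near Cx3cr1, also on chromosome 9, Csrnp1 was higher in LSK cells by 1.50 ± 0.23 in KO mice (adjusted p = 0.00242) and by 2.05 ± 0.23 in WT mice (adjusted p = 0.000307), the opposite direction to Cx3cr1. Over all 32 flanking genes that are not among the 10, 4 passed in KO LSK cells and 0 in KO myeloid progenitors. The shares over all genes were 4.64% and 2.64%. The 4 were Wfdc18 and the receptors Ccr9, Cxcr6 and Xcr1, which were already counted among the 17 other receptors.

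Across the 8 mice, Ccl3 and Ccl4 varied together (Pearson r of 0.99). Their listed gene intervals overlap in RefSeq and the sources used here give no probe sequences, so signal shared between the probes cannot be told apart from shared expression. Among 4985 genes whose mouse means spanned at least 1, those most like Ccl3 were Gimap8 (r of 0.992), Ccl4 and Gimap5 (0.989). For Ccl4 they were Dusp2 (0.994), a phosphatase of MAP kinases, Crispld1 (0.993) and Procr (0.993), a receptor used as a stem cell marker. For Ccl5 they were Phxr4 (0.991), Cxcr6 (0.988) and Slc6a15 (0.987), and for Ccl9 they were Tbc1d9b (0.975), Spata48 (0.959) and Ripk4 (0.959). Ccr1 was most like Chd2 (0.986), Ccr2 most like Magt1 (0.975) and Cx3cr1 most like Ahctf1 (0.974). These r values are descriptions over 8 mice that share a division into populations and genotypes.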

How the data were processed

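Per the labels' protocols, total RNA of sorted cells was amplified and Cy5-labelled for 24 one-colour arrays. The deposited values are log2 expression values made by the authors, and limma is named without a version, per the submitters' processing notes. Ranked within arrays, values of equal rank lay within 0.0451 of each other, the pattern that quantile normalization leaves. The sources used here do not give the scanner, background correction or spot filters. The precision is limited by 2 mice per group, and arrays have no count depth.

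Probe names came from the platform annotation, updated through RefSeq names (GRCm38.p6). Of 22439 probes, 18213 matched by symbol and 2126 by synonym, 36 kept the array name and 2064 had none. A gene was read from its brightest probe.

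The 3 arrays of each mouse were averaged. A limma model (version 3.58.1, R 4.3.3) of the 4 groups was then fitted to these 8 columns, with lmFit and with eBayes using trend and robust moderation. Two-sided p-values were adjusted over every probe (Benjamini-Hochberg) and judged at 0.05. The 6 comparisons were KO minus WT in each population, the mean and the difference of these, and LSK minus myeloid progenitors in each genotype. The KO minus WT fit in LSK cells was also run on simulated mouse means with known changes, whose outcome is not reported here. Nothing says that the arrays of a mouse came from separate RNA samples.

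The genes, lists and motifs were chosen with earlier results of these data known, so none of them is independent support. Named are the 10 genes, up to 4 genes past the threshold per list and comparison, up to 3 RefSeq neighbours on each side, and the 3 genes most similar to each of the 10 whose mouse means spanned at least 1. Immediate early genes fall outside this rule. Alternatives were a fit of single arrays with mouse as random block (with or without the array number as a replicate block), the compared groups alone, a filter at the 25th percentile, the mean over a gene's probes, eBayes without options, cyclic loess, and leaving out mice. RefSeq promoter windows of 8 of the 10 genes were searched, over the 250 bases before the start.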

Additional observations from a re-analysis of the deposited data

How the results depend on the processing

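No value past the threshold changed sign under the alternatives run, while 20 of the 60 differences of the 10 genes, none past the threshold as reported, changed sign under at least 1 alternative. For KO minus WT in LSK cells the count of genes past the threshold, 2 as reported, was 1 with the compared groups alone, 1 with eBayes without trend and robust options, 1 without mice 1 and 5, and 1 to 2 with any 1 mouse left out, and 3 with single arrays and mouse as a random block or with the array number as a replicate block added, where Cx3cr1 passed too. Ccl9 was among the calls in each. In myeloid progenitors it was 0 as reported and 2 (Ccl9 and Cx3cr1) with all arrays and the mouse as a random block, and 2 with the array number as a replicate block added. For the mean of the changes it was 2, with 1 under eBayes without options 1 to 3 with any 1 mouse left out, and 3 (with Cx3cr1) in both random block fits. For the difference of the changes it was 0, and 1 (Ccl9) with the random block and 1 with the replicate block added. Between populations it was 5 in KO mice, with 8 under the random block, 8 with the replicate block added and 0 to 6 with any 1 mouse left out, and 4 in WT mice, with 6 in both random block fits, 2 without mice 1 and 5 and 3 to 4 with any 1 mouse left out. The random block fit uses the arrays of a mouse, whose residuals correlated at 0.442, and so has more residual degrees of freedom. The share of all genes past the threshold under each alternative is not given here. The counts under alternatives, here and above, therefore have no background beside them and are not results about these genes. Arrays of the same number in different mice correlated at a median of 0.00567 (84 pairs, from -0.25 to 0.277). For other numbers the median was 0.00488 (168 pairs, from -0.303 to 0.292). These medians show no pairing by array number, but they cannot exclude a batch shared by only some mice or probes. With 2 mice per group, leaving out 1 leaves a lone mouse that is assumed to vary like the other groups. Probes near the low end of an array (Ccl5 in myeloid progenitors, Ccr6, Xcr1) are limited by signal over background, which the deposited values do not record.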
